A study of Mus musculus with 2 samples.

Results

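Il6-type mural cells are the mural cells of healed mouse skin wounds in which Il6, H2-M9, Gm13889 and Gucy1a3 were detected more often than a contrasting set of mural genes. They numbered 131 of the 4648 cells kept from 1 control and 1 SM22-SmoM2 single-cell library, 93 and 38 respectively. They were chosen by their measured UMI counts in 3 steps. First, cells with at most 10% mitochondrial UMIs (unique molecular identifiers, each standing for 1 captured transcript) were kept. Second, a cell was called mural when at least 3 of the 7 genes Rgs5, Notch3, Higd1b, Ndufa4l2, Des, Kcnj8 and Abcc9 had a UMI and Pdgfra, Pecam1 and Sox10 together had at most 2, which left 447 cells. Last, a mural cell was Il6-type when more genes were detected of Il6, H2-M9, Gm13889 and Gucy1a3 than of Cox4i2, Cyp4b1, Olfr558 and Nrip2. Mural cells with the opposite order are called Cox4i2-type here (170 cells), and 146 were tied.

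Both groups carried SM22rtTA and tetO-Cre and received doxycycline at 20 g/kg from day 1 after wounding until 3 days after the wound had closed, at an age of 4 to 5 weeks. The control group had R26-Tomato as its Cre-dependent allele and the SM22-SmoM2 group had R26-SmoM2 together with Tomato. A constitutively active Smoothened was therefore the intended genetic difference between them. The SM22α (Tagln) promoter drove the transactivator, so a cell was marked only where that promoter had been active with doxycycline present. Dermal cells were freed with EDTA and collagenase, sorted for Tomato, and run on the 10x Chromium platform. The cells of each library were pooled from several mice and the mice cannot be separated in the files, so each group is 1 sample. No difference between the groups could therefore be tested, and every interval given below is a 95% interval that covers counting error only.

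Mural cells are the pericytes of capillaries and the smooth muscle cells of larger vessels, which wrap the endothelial tube and share its basement membrane. They set vessel calibre through an actin and myosin apparatus that nitric oxide relaxes through soluble guanylate cyclase and cyclic GMP. They are also a source of cytokines and chemokines, among them interleukin-6, whose gene is switched on by NF-κB and C/EBP factors in stimulated stromal cells. Smoothened is the membrane protein that turns on the Hedgehog pathway, and Ptch1 and Gli1 are among the targets it raises.

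The kept cells of the control library had a median of 8607.5 UMIs and those of the SM22-SmoM2 library 8837.5. Il6-type cells were shallower, with a median of 6835 UMIs in control (3132 to 39639) and 4566 in SM22-SmoM2 (2624 to 25932). They summed to 848327 and 277557 UMIs. Levels below are UMIs per 1000000 UMIs summed over the cells of a group (CPM), so that 3 UMIs in the control group stand for 3.54 CPM and 3 in the SM22-SmoM2 group for 10.8. The 5 deepest SM22-SmoM2 members held 35% of that group's UMIs, against 17.4% in control.

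The mural label was checked on the rule's markers and on genes outside the rule. Rgs5, a regulator of G protein signalling and a standard pericyte gene, was found in 89 of 93 control and 38 of 38 SM22-SmoM2 members. After each cell was thinned to 2500 UMIs, it was found in 87.1% and 100% of members, in 4.28% and 3.04% of the fibroblasts, and in 13.1% and 17.3% of the endothelial cells of the same libraries. Rgs5 is one of the 7 genes that chose mural cells, so its share follows from the rule. Outside the rule, Vtn, which encodes vitronectin, was found after thinning in 34.4% of control and 50% of SM22-SmoM2 members. It was found in 3.11% and 1.08% of fibroblasts and in 0.510% and 2.81% of endothelial cells. Vtn was a listed marker of these cells, chosen with earlier results of these data known, so its share is a description. Pdgfrb, the receptor through which endothelial cells recruit pericytes, was found in 62.4% and 71.1% of members, in 18.7% and 20.5% of fibroblasts and in 4.76% and 8.43% of endothelial cells. Their levels in the members were 145 and 231 CPM for Vtn and 341 and 501 CPM for Pdgfrb. Not all members fitted the label, since 11 control members had between 1.01 and 6.74 mural-marker UMIs per 10000 UMIs. The next control member had 17.5 and the lowest SM22-SmoM2 member 13.4. These 11 cells had 0 to 2 Rgs5 UMIs. They were deep, with 13603 to 39639 UMIs, and held 29.4% of the control group's UMIs.

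The same 11 cells carried fibroblast transcripts. They held 4578 of the 4924 UMIs of Dpt, Lum, Dcn and Mfap5 in the control group, at 50 to 303 UMIs per 10000 with a median of 204. They had 27 of the 214 Il6 UMIs, and Il6 was detected in 10 of them, so Il6 was part of what made them members. In the Cox4i2-type group, 2 control cells and 1 SM22-SmoM2 cell lay under 10 mural-marker UMIs per 10000. The main results are therefore given for all 131 cells and for the 120 with at least 10 mural-marker UMIs per 10000 (82 and 38), a limit set after the values were seen. Values named with no set are for all 131. The 82 control cells had a median of 5983.5 UMIs and summed to 598821.

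**Figure D1:**
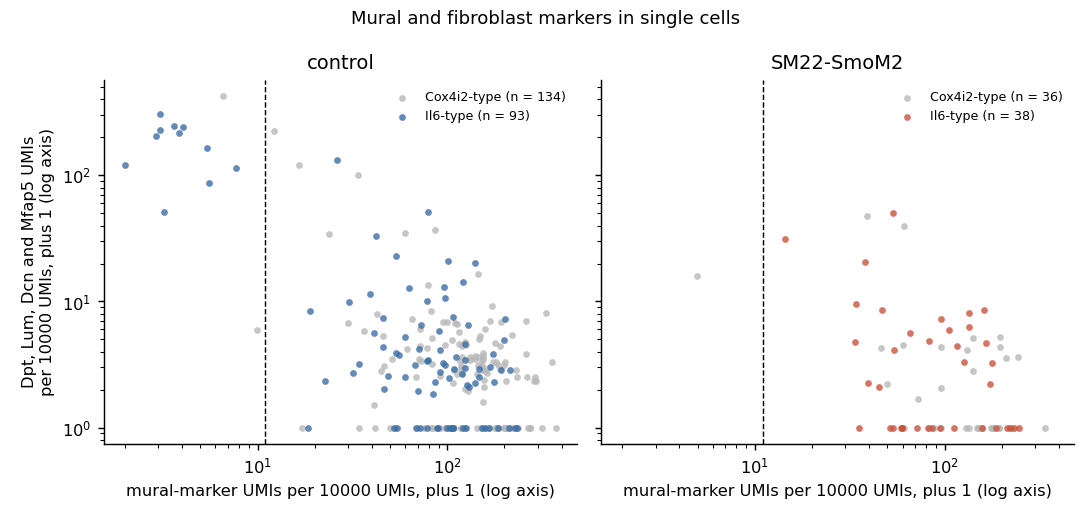
Each point is 1 cell. The horizontal axis gives UMIs of the 7 mural markers and the vertical axis UMIs of Dpt, Lum, Dcn and Mfap5, both per 10000 UMIs plus 1 on log axes, for control (left) and SM22-SmoM2 (right), and the dashed line marks 10 mural-marker UMIs per 10000. The 11 control Il6-type cells left of the line form a group high in fibroblast markers, with no SM22-SmoM2 Il6-type cell beside them.

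The plot of mural against fibroblast markers shows that, right of the line, Il6-type and Cox4i2-type cells overlapped on both measures. In the 120 cells, fibroblast markers summed to 8705 CPM in control and 8892 in SM22-SmoM2, beside 8876 and 7887 for the 7 mural markers. The collagen gene Col3a1 made 4415 and 4075 CPM of the fibroblast sum. The other lineages measured were lower. Endothelial markers summed to 327 CPM in control and 220 in SM22-SmoM2, and keratinocyte markers to 35.1 and 32.4. Immune markers summed to 620 and 36.0 CPM, led by Lyz2. In the control group, 208 of 237 Lyz2 UMIs came from 1 cell with 54.7 mural-marker UMIs per 10000, and 52 of 54 Il1b UMIs from another with 108. The 5 cells richest in Cd74, the invariant chain of MHC class II, held 98.3% of its 579 UMIs. No doublet caller was run, and whether these barcodes held more than 1 cell was not tested. The matrix columns carry no barcode sequences, so barcodes shared by the libraries could not be counted, but no 2 of the 4680 columns were identical.

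Il6-type cells made up 27.5% of the control mural cells (95% Clopper-Pearson interval 22.8 to 32.6) and 34.9% of the SM22-SmoM2 mural cells (26 to 44.6). Among the 120, the shares were 25.9% (21.2 to 31.2) and 35.2% (26.2 to 45.0). Of all kept cells they were 3.26% (2.64 to 3.97) in control and 2.12% (1.5 to 2.9) in SM22-SmoM2. Among mural cells with Y-linked and no Xist UMIs the order was the opposite, at 33.8% (26.1 to 42.2) in control and 26.4% (15.3 to 40.3) in SM22-SmoM2. With 1 library per group no difference between the shares could be tested, and the sort for Tomato and the depth of a cell both bear on who enters the counts.

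The genes that chose the members were unevenly spread among them. All 4 were detected in 28 of 93 control members (30.1%) and 7 of 38 SM22-SmoM2 members (18.4%). Gm13889 with Gucy1a3, and neither of the others, marked 18 and 4 cells. H2-M9 joined that pair in 16 and 9 cells, and Il6 joined it in 14 and 13. Il6 alone marked 8 control members and no SM22-SmoM2 member. Many members therefore had no Il6 UMI, namely 39 of 93 in control and 14 of 38 in SM22-SmoM2.

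Of these 4 genes, Il6 and H2-M9 had higher levels in Il6-type than in Cox4i2-type cells of both libraries, and the other pair did not in every set. In the 120 cells Il6 was at 312 CPM in control and 400 in SM22-SmoM2, against 83.7 and 53.0 in Cox4i2-type cells. H2-M9, a non-classical MHC class I gene, was at 367 and 108 CPM against 75.7 and 26.5. Gm13889, a predicted gene, was at 1082 and 832 CPM against 1009 and 572. Gucy1a3, the α subunit of soluble guanylate cyclase, was at 364 and 263 CPM against 363 and 366. In all control members Gm13889 was lower than in Cox4i2-type cells, at 767 against 987 CPM, and Gucy1a3 too, at 263 against 355. After thinning, Il6 was found in 36.6% of the 82 control and 47.4% of the 38 SM22-SmoM2 cells. Its share was 7% and 8.13% in fibroblasts, 6.63% and 7.23% in endothelial cells and 6.72% and 5.56% in Cox4i2-type cells. These values describe the choice of members and are no evidence for it.

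Members just inside the limit and tied cells just outside it differed in both directions. A lead of 1 gene made 67 control and 26 SM22-SmoM2 members, and 111 and 35 mural cells had a lead of 0. From the tied cells to those with a lead of 1, Il6 went from 218 to 122 CPM in control and from 148 to 302 in SM22-SmoM2. Rgs5 went from 5519 to 3617 CPM and from 7185 to 4768. Ccl2 went from 783 to 1101 CPM and from 554 to 846, and Ccl7 in control from 135 to 360. These control values include fibroblast-marked members, and 9 of the 111 tied control cells also lay under 10 mural-marker UMIs per 10000. Those 9 held 146003 of the 867959 UMIs of the tied control cells. A lead of at least 2 genes was found in only 26 control and 12 SM22-SmoM2 cells.

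Contractile genes were lower in SM22-SmoM2 than in control Il6-type cells. Acta2, the smooth muscle actin, stood at 1771 CPM in control and 656 in SM22-SmoM2, a log2 ratio of -1.43 (-1.66 to -1.21). The summed contractile genes stood at 10316 and 7181 CPM, a log2 ratio of -0.52 (-0.59 to -0.45). In the 120 cells both differences were larger. There Acta2 was at 2482 CPM in control with a ratio of -1.92 (-2.15 to -1.70), and the sum was at 13537 CPM with a ratio of -0.91 (-0.99 to -0.84). Without Cald1, the most abundant gene of the list, the sum gave -0.59 for all cells and -0.99 for the 120. Among members with Y-linked and no Xist UMIs, the sum gave -0.26.

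The list held 28 genes of the contractile apparatus, of which 18 had at least 50 UMIs over both libraries and were compared. Among all members, 0 were at least 2-fold higher and 4 at least 2-fold lower (Acta2, Myh11, Lmod1 and Actg2), with a median log2 ratio of -0.37 against -0.07 over the 3403 genes compared. Over those 3403 genes, 1.88% were at least 2-fold higher and 7.67% at least 2-fold lower. Among the 120 cells, 0 were higher and 7 lower, with Tagln, Myl9 and Nexn added, and all 18 ratios were below 0. Their median was -0.80 against -0.09 over 2771 genes, of which 1.62% were higher and 5.09% lower. The list's share of lower genes was above the background in both sets, and its share of higher genes was 0 in both.

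The difference was uneven across the roles of these genes. Myh11, the smooth muscle myosin heavy chain, was at 120 CPM in control and 57.7 in SM22-SmoM2 with a ratio of -1.06 (-1.92 to -0.29). Myl9, the regulatory myosin light chain, was at 1212 and 703 CPM with -0.79 (-1.01 to -0.56). Tagln, the actin-binding protein SM22α whose promoter drove the transgene, was at 866 and 548 CPM with -0.66 (-0.92 to -0.41). Mylk, the kinase that activates myosin, was at 496 and 357 CPM with -0.48 (-0.81 to -0.16), and with -0.96 in the 120. Actg2, the enteric smooth muscle actin, was at 68.4 and 18.0 CPM and Lmod1, an actin filament nucleator, at 54.2 and 25.2, from 7 or fewer SM22-SmoM2 UMIs each. The tropomyosins Tpm1 and Tpm2 gave -0.35 and -0.38, and Cald1, which encodes caldesmon, -0.24 (-0.40 to -0.07). Flna, which crosslinks actin, gave -0.03, Vcl, which encodes vinculin, -0.18 and Actn1, an α-actinin, 0.11, each with an interval that held 0. In the 120 cells these became -0.28, -0.59 and -0.19, Tagln became -1.13, Myl9 -1.27 and Myh11 -1.56. Myocd, the cofactor that switches on smooth muscle genes, had 1 UMI in control and 0 in SM22-SmoM2, and no level could be read from it.

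**Figure D2:**
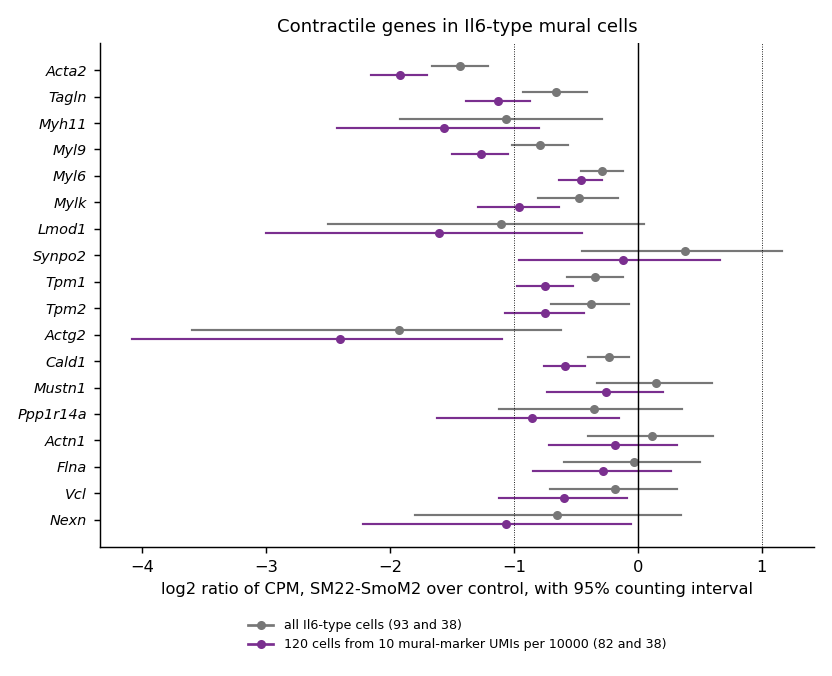
Each row is 1 contractile gene with at least 50 UMIs. Points give the log2 ratio of CPM, SM22-SmoM2 over control, and bars its 95% counting interval, for all 131 Il6-type cells (grey) and for the 120 with at least 10 mural-marker UMIs per 10000 (purple). Dotted lines mark 2-fold. Every purple point lies below 0 and Acta2 is at -1.92.

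In the plot of contractile ratios the purple point lies left of the grey one for every gene, and the 11 control cells that separate the sets had 2585 CPM of contractile genes. Single cells gave the same order of the libraries for Acta2. In the 82 control cells it ran from 0 to 203 UMIs per 10000 with a median of 13.1, and in the 38 SM22-SmoM2 cells from 0 to 63.0 with a median of 2.24. The ranges overlapped, and the 5 cells richest in Acta2 held 28.9% of its control UMIs and 60.4% of its SM22-SmoM2 UMIs. After thinning to 2500 UMIs, Acta2 was found in 82.9% (73.0 to 90.3) of the control and 50% (33.4 to 66.6) of the SM22-SmoM2 cells, with 24.4% and 21.7% in fibroblasts and 5.10% and 4.82% in endothelial cells. The contractile genes together had a median of 98.4 UMIs per 10000 in control, from 26.5 to 511, and of 62.5 in SM22-SmoM2, from 30.3 to 281.

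Cox4i2-type cells of the same libraries also had lower contractile levels in SM22-SmoM2. Their sum gave a log2 ratio of -0.48 (-0.55 to -0.42), or -0.45 (-0.51 to -0.38) in cells with at least 10 mural-marker UMIs per 10000. In those, Acta2 gave -0.78 (-0.95 to -0.60), Tagln -1.05 (-1.33 to -0.77) and Myl9 -0.27 (-0.43 to -0.10). Whether the types differed in this respect was not tested, since each value rests on 1 library per group.

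The CArG box is the serum response factor motif of smooth muscle promoters, and it was searched on both strands of RefSeq promoter sequences (GRCm38.p6, 250 bases before to 50 after each gene's start). It was in 3 of 25 promoters of contractile genes, those of Myl6, Myl9 and Vcl, and in 1.63% of all 32851 promoters. The promoter of Myl9, the listed gene with both a match and a large difference, is shown. The 250 bases before the start lie at chr2:156775214-156775463 on the plus strand, with the match in capitals 161 to 152 bases before the start.
Myl9: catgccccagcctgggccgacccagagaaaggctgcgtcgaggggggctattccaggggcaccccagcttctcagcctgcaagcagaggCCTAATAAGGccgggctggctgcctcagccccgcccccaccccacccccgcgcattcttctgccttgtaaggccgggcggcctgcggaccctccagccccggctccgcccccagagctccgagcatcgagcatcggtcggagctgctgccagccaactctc
The other contractile promoters held no match in this window, and nothing follows from that about the factor.

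Among cytokines, Tgfb2 was lower in SM22-SmoM2 in both sets, while Il6 and Tnfsf9 were higher by amounts that varied with the setting. Il6 had 214 UMIs in the 93 control members and 111 in the 38 SM22-SmoM2 members, or 252 and 400 CPM. The log2 ratio was 0.66 (0.32 to 1.00), and 0.36 (0.00 to 0.70) in the 120 cells. It was 0.34 (-0.01 to 0.69) with at least 4 mural markers and 0.11 (-0.38 to 0.58) with a lead of at least 2 genes. Il6 is one of the genes that chose the members, so this is a description only. In single cells Il6 ran from 0 to 49.6 UMIs per 10000 with a median of 1.19 in the 82 control cells, and from 0 to 77.3 with a median of 1.41 in SM22-SmoM2. The 5 cells richest in Il6 held 44.9% and 64.9% of its UMIs, so a few cells set both levels.

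Of 26 listed cytokines, 9 had at least 50 UMIs. Among all members, 1 was at least 2-fold higher (Tnfsf9) and 2 lower (Il1b and Tgfb2), with a median of -0.12. In the 120 cells 1 was higher and 3 lower, with Tgfb3 added, and the median was -0.19. Over all genes compared, 1.88% were higher and 7.67% lower in all members, and 1.62% and 5.09% in the 120, and these shares hold for the gene lists that follow. Tnfsf9, a TNF-family ligand that costimulates T cells, was at 37.7 CPM in control and 112 in SM22-SmoM2 with a ratio of 1.57 (0.81 to 2.33), and of 1.06 (0.30 to 1.82) in the 120. It rests on 32 and 31 UMIs, and the ratio was 0.003 (-1.32 to 1.22) when every cell was thinned to 2500 UMIs before members were chosen (110 and 52 cells). Tgfb2, a growth factor of wound stroma, was at 93.1 and 21.6 CPM with -2.11 (-3.60 to -0.92), and Tgfb3 at 61.3 and 36.0 with -0.77 (-1.91 to 0.23). In the 120 these became -2.16 (-3.67 to -0.95) and -1.15 (-2.30 to -0.15), on 6 and 10 SM22-SmoM2 UMIs. Tgfb1 was at 82.5 and 101 CPM, with an interval that held 0. Il34, a ligand of the CSF1 receptor, was at 164 and 195 CPM, Mif at 354 and 324, and Kitl, which encodes stem cell factor, at 74.3 and 68.5. The Il1b difference came from 1 control cell, described above. Lif had 9 and 4 UMIs, Csf1 28 and 7, Tnf 5 and 0 and Csf3 2 and 1, too few for a level.

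Chemokines were among the most abundant signals of these cells. Cxcl1, a neutrophil attractant, was at 1934 CPM in control and 1906 in SM22-SmoM2, and Ccl2, the main chemokine for monocytes, at 1208 and 1412. Their log2 ratios were -0.02 (-0.17 to 0.12) and 0.23 (0.05 to 0.39) in all members, and 0.31 (0.16 to 0.47) and 0.56 (0.37 to 0.75) in the 120. The 11 fibroblast-marked cells held 451 of the 1025 control Ccl2 UMIs and 723 of the 1641 control Cxcl1 UMIs. Thinned to 2500 UMIs, Ccl2 was found in 56.1% of the 82 control and 63.2% of the SM22-SmoM2 cells, and in 41.8% and 29.2% of fibroblasts, and how much free RNA added to it was not tested. Single SM22-SmoM2 members ran from 0 to 82 Ccl2 UMIs per 10000 with a median of 7.09, and the 82 control cells from 0 to 69.4 with a median of 4.94.

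Other chemokines were lower in SM22-SmoM2 or within their counting intervals of no difference. Ccl7, a second monocyte attractant, was at 349 and 86.5 CPM with a ratio of -2.01 (-2.68 to -1.41), but in the 120 cells at 150 CPM in control with -0.80 (-1.51 to -0.13). Ccl11, the eosinophil attractant eotaxin, was at 325 and 173 CPM with -0.91 (-1.39 to -0.47), and with -1.33 (-1.81 to -0.89) in the 120. Cxcl2 was at 514 and 274 CPM with -0.91, with -0.20 (-0.60 to 0.19) in the 120 and with 0.52 in members chosen after thinning. Cxcl10, an interferon-induced T cell attractant, was at 191 CPM in both libraries. Of 18 listed chemokines 7 were compared, with 0 at least 2-fold higher and 1 lower in either set (Ccl7 in all members, Ccl11 in the 120), and a median of -0.91 in all members and -0.20 in the 120. The summed chemokines gave -0.20 (-0.29 to -0.10) and 0.12 (0.02 to 0.23).

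**Figure D3:**
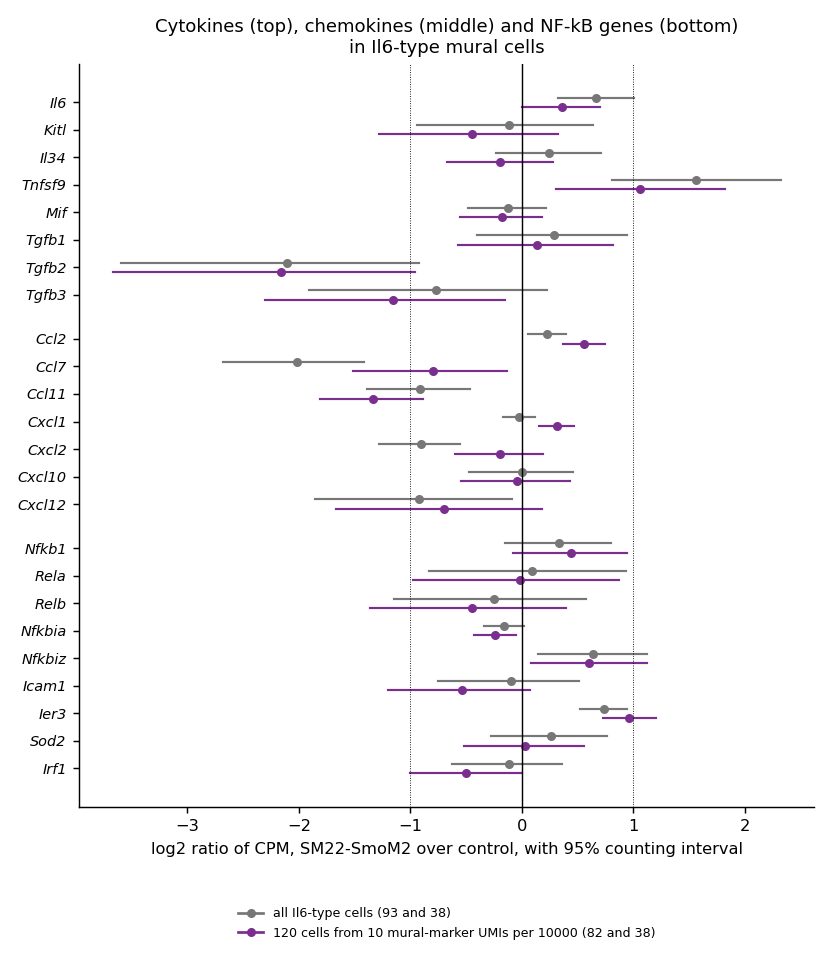
Each row is 1 gene with at least 50 UMIs, with cytokines at the top, chemokines in the middle and NF-κB genes at the bottom. Points give the log2 ratio of CPM, SM22-SmoM2 over control, and bars its 95% counting interval, for all 131 Il6-type cells (grey) and the 120 with at least 10 mural-marker UMIs per 10000 (purple). Il1b is not drawn. Tnfsf9 lies past the 2-fold line on the right and Tgfb2 past the one on the left in both sets.

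In the plot of cytokine ratios most intervals of the NF-κB genes hold 0 or lie near it. None of the 9 compared was 2-fold apart in either direction, with a median of 0.09 in all members and -0.02 in the 120. Nfkb1, a subunit of the factor, was at 154 and 195 CPM, and Nfkbia, its inhibitor and target, at 1341 and 1200. Nfkbiz, a nuclear regulator of the Il6 gene, was at 127 and 198 CPM with 0.64 (0.14 to 1.12), but with -0.22 in members chosen after thinning, and Ier3, an early response gene, at 617 and 1027 with 0.74 (0.52 to 0.95). Immediate early genes gave a median of -0.05 over 15 compared, with Nr4a1, a nuclear receptor, higher at 288 and 674 CPM. Klf2 was lower at 187 and 72.1 CPM in all members but at 76.8 and 72.1 in the 120.

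The factors that act on Il6 and those that act after it did not share 1 direction. Cebpb, a factor that binds the Il6 promoter, was at 322 CPM in control and 836 in SM22-SmoM2, with a ratio of 1.38 (1.12 to 1.63) in all members and 1.37 in the 120, but 0.34 in members chosen after thinning. The 5 deepest SM22-SmoM2 members held 52.2% of its UMIs and 35% of all UMIs. After thinning, Cebpb was found in 45.1% (34.1 to 56.5) of the 82 control and 63.2% (46.0 to 78.2) of the SM22-SmoM2 cells, and in 28.9% and 52.6% of fibroblasts. Socs3, the feedback inhibitor that IL-6 induces, was at 253 and 141 CPM with -0.85 (-1.38 to -0.35), and with -1.23 (-1.77 to -0.73) in the 120. Il6st, the signal-transducing receptor subunit, was at 236 and 220 CPM, Jak1 at 184 in both libraries and Stat3 at 133 and 162. Il6ra, the ligand-binding subunit, had 6 and 0 UMIs in the members.

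One form of the NF-κB motif, GGANTTTCC, was searched on both strands of the same promoters. This form was picked with Il6 in mind, so its match in the Il6 promoter is a description only. It was in 2 of 21 cytokine promoters (Il6 and Csf1), 3 of 11 chemokine promoters (Cxcl1, Cxcl2 and Cxcl10), 0 of 25 contractile promoters and 1.25% of all promoters. None of the cytokine, chemokine or contractile promoters held both this motif and a CArG box. The promoters of Il6, Cxcl1 and Cxcl10 are shown, as the cytokine that names these cells and chemokines they expressed above Cox4i2-type cells in both libraries. Each run is the 250 bases before the start, with the match in capitals. They lie at chr5:30012864-30013113 on the plus strand for Il6, chr5:90890995-90891244 on the plus strand for Cxcl1 and chr5:92348890-92349139 on the minus strand for Cxcl10. The matches lie 43 to 35, 70 to 62 and 158 to 150 bases before the start. The Cxcl10 match is on the other strand and reads GGAAATTCC as printed.
Il6: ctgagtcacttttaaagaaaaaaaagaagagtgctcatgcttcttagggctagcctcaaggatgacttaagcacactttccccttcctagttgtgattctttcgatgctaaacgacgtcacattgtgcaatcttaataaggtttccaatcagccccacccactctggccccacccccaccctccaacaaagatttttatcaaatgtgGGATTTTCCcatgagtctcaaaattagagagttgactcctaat
Cxcl1: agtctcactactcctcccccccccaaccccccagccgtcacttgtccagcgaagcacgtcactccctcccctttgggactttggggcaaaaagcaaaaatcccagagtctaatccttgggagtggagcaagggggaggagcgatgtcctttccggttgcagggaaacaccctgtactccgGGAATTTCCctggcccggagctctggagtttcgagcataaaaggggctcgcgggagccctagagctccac
Cxcl10: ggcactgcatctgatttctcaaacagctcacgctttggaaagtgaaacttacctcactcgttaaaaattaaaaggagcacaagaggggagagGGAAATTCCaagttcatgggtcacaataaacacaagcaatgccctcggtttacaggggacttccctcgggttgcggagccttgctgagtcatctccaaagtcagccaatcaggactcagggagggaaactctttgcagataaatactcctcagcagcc
A match is a description of these letters and not of binding.

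Few members showed transcripts of the Hedgehog targets. Ptch1 had 7 UMIs in 7 of 93 control members and 17 UMIs in 5 of 38 SM22-SmoM2 members, or 8.25 and 61.2 CPM, a log2 ratio of 2.89 (1.55 to 4.40). With fewer than 50 UMIs in all, it was not among the genes compared and is given for its role as a target. A single SM22-SmoM2 cell held 8 of the 17 UMIs. Gli1 had 1 and 4 UMIs. After thinning, a Ptch1 UMI was found in 0 of the 82 control cells, with an upper limit of 4.40% for cells with a UMI at that depth, and in 7.89% (1.66 to 21.4) of the SM22-SmoM2 cells. Fibroblasts of the same libraries had 2.82% and 26.3% after thinning, and endothelial cells 3.40% and 5.62%. The interval of the thinned SM22-SmoM2 members holds the endothelial share, and the fibroblast share lies above it. Before thinning, the shares of the 82 control and 38 SM22-SmoM2 members were 6.10% and 13.2%. Smo was at 38.9 and 39.6 CPM. How many of these members had recombined the SmoM2 allele was not tested.

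Of 11 MHC class I genes compared, 1 was at least 2-fold lower in SM22-SmoM2 in either set, and it was H2-M9, which chose members. The log2 ratio was below 0 for 7 of the 11 in all members and for 9 in the 120, where the intervals of 5 lay below 0. H2-M9 gave -1.26 (-1.86 to -0.71) in all members and -1.77 (-2.37 to -1.21) in the 120. H2-K1 was at 659 and 522 CPM, H2-D1 at 2203 and 1755 and B2m, the light chain that all class I molecules share, at 3497 and 3372. Their median was -0.05 in all members and -0.37 in the 120. Of genes for nitric oxide and cyclic GMP signalling, 6 were compared, with 0 past 2-fold in all members (median -0.01) and 1 lower (Pde3a, a phosphodiesterase) in the 120 (median -0.47). Among vessel and Notch signals, Heyl, a Notch target of mural cells, was at 68.4 and 162 CPM with 1.25 (0.65 to 1.83), and with 0.93 (0.32 to 1.54) in the 120, but with -0.22 (-1.27 to 0.75) in members chosen after thinning. Hif1a was at 101 and 50.4 CPM with -1.01 (-1.94 to -0.18), and with -1.15 in the 120. Other mural genes gave a median of 0.56 over 13 compared in all members and 0.19 over 12 in the 120.

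Fibroblast markers depended on the 11 cells. In all members 6 of 9 fibroblast markers were at least 2-fold lower in SM22-SmoM2, with a median of -1.33. In the 120 cells 1 was lower (Dpt) and 1 higher (Mfap5), with a median of 0.20. That result also leans on deep SM22-SmoM2 cells. For Dpt, Lum, Dcn and Mfap5 together, 1 with 20604 UMIs stood at 49.0 per 10000 and another with 16467 at 30.4. The median of the 38 cells was 1.24, against 1.93 in the 82 control cells, of which the highest stood at 131. Ratios without those SM22-SmoM2 cells are not given. Of 19 matrix and basement membrane genes, Sparc, Fn1, Tnc and Postn were at least 2-fold lower in all members, and Tnc and Thbs1 of 18 in the 120. In members chosen after thinning, Tnc gave 0.60 and Dpt 0.91. Fn1, for instance, gave -1.76 in all members and 0.08 in the 120. The cell cycle list, with 6 genes compared, had 0 higher and 3 lower (Ccnb1, Cenpf and Ube2c), on a sum of 500 and 119 UMIs. Of 5 compared in the 120, 2 were lower (Ccnb1 and Cenpf), on 323 and 119 UMIs. The direction turned for each, to 2.08 for Ccnb1 and 2.30 for Ube2c in members chosen after thinning and to 1.95 for Cenpf with a lead of at least 2 genes.

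Outside the lists, the genes most above control in the 120 cells were led by Mfap4, Ctgf and Igfbp4. Mfap4, a matrix protein gene, was at 30.1 and 169 CPM in the 120 with 2.49 (1.68 to 3.37), but at 585 CPM in control with -1.79 in all members, so its direction rests on the 11 cells. Igfbp4, which binds insulin-like growth factors, was at 172 and 894 CPM with 2.38 (2.04 to 2.72), but the 5 deepest SM22-SmoM2 members held 83.1% of its UMIs, and it gave -0.78 with a lead of at least 2 genes. Ctgf, a matricellular target of TGFβ and YAP, was at 31.7 and 177 CPM with 2.48 (1.69 to 3.32), and it was found in 9 of 82 and 10 of 38 cells. In members chosen after thinning it gave 0.34, and Id1, described next, 0.46. Id1, a target of BMP signals, was at 152 and 465 CPM with 1.61 (1.21 to 2.02), and 64 of its 129 SM22-SmoM2 UMIs were in 1 cell. Pim1, a kinase induced by cytokine receptors, was at 190 and 519 CPM with 1.45 (1.08 to 1.81), and the 5 deepest members held 72.2% of its UMIs. Pim1 gave -0.20 in members chosen after thinning and -0.78 with a lead of at least 2 genes. More evenly spread were Wdr89, found in 31 of 82 and 28 of 38 cells at 66.8 and 245 CPM, and Gm8797, found in 67 and 38 cells at 287 and 1110 CPM, and in members chosen after thinning they gave 1.25 and 1.93. Cox4i2-type cells were also higher in SM22-SmoM2 for both genes. Il6-type over Cox4i2-type ratios were -0.53 in control and 0.49 in SM22-SmoM2 for Wdr89, and -0.16 and 0.43 for Gm8797. Gm8797 is a predicted gene whose reads may be shared with near-identical copies. The genes furthest below control were led by Cd74, Lyz2, H2-Aa, H2-Ab1 and Cd14, and the 5 richest of the 82 control cells held 97.5% of the UMIs of H2-Aa and 99.0% of those of Cd74. Fhl1 and Actg2 were also among the 12 lowest. Leaving out the Lyz2-rich and Il1b-rich cells left Il6 at 0.61 and Acta2 at -1.45 in all members.

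Within each library, the chemokine and NF-κB lists had positive median log2 ratios for Il6-type over Cox4i2-type cells. Not every listed gene was at least 2-fold higher, and several mural genes were lower. Of the genes compared between the types in all cells, 4.15% were at least 2-fold higher and 3.74% lower in control, and 4.87% higher and 2% lower in SM22-SmoM2. In cells with at least 10 mural-marker UMIs per 10000, these shares were 1.71% and 2.25% in control and 4.64% and 2.42% in SM22-SmoM2. In those cells 1441 genes were compared in both libraries, and 15 were at least 2-fold higher in both, 4 lower in both and 1 past 2-fold in opposite directions. Genes that chose the types were not left out of these counts. Il6 is among the higher, and Cox4i2 and Olfr558 are among the lower, as the choice of types would have it. The values below are from those cells. Since the types were defined by their own transcripts, they are descriptions.

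Of the chemokines compared, 6 of 7 were at least 2-fold higher in Il6-type cells of control (median 1.63) and 2 of 5 in SM22-SmoM2 (median 0.94). The all-gene medians were -0.03 and -0.04. For Cxcl2 the control ratio was 1.75 (1.38 to 2.12), but 0.50 (-0.37 to 1.37) when the types were chosen after thinning. Ccl2 was at 959 against 478 CPM in control, a log2 ratio of 1.00 (0.83 to 1.18), and at 1412 against 244 CPM in SM22-SmoM2, a ratio of 2.53 (2.09 to 3.01). Cxcl10 was at 197 against 63.8 CPM and at 191 against 53.0, with ratios of 1.63 and 1.85. Cxcl1 was at 1533 against 495 CPM with 1.63 (1.47 to 1.79), and at 1906 against 1108 with 0.78 (0.55 to 1.02), where a single Cox4i2-type cell held 121 of 209 UMIs. In single cells, Ccl2 had a median of 4.94 and 7.09 UMIs per 10000 in Il6-type cells and of 0 in Cox4i2-type cells of both libraries.

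NF-κB genes were at least 2-fold higher for 4 of 10 in control (median 0.54) and 4 of 6 in SM22-SmoM2 (median 1.19). Nfkb1 was at 144 against 42.8 CPM with 1.75 (1.2 to 2.31), and at 195 against 31.8 with 2.61 (1.40 to 4.12). Nfkbia gave 1.18 and 0.99 and Irf1, an interferon regulatory factor, 1.31 and 1.30. Among the 12 genes most above Cox4i2-type cells in both libraries were also Tgif1, Csrnp1, Pim1, Tnfrsf12a, Cdkn1a, Fosl2, Erdr1, Dnajb1 and Adamts4. Tnfrsf12a gave -0.29 in control when the types were chosen after thinning. Several of these are stress or early response genes, for example Dnajb1, a heat-shock cochaperone, with 1.06 and 1.2, and Cdkn1a, the p53 target p21, with 1.21 and 1.89. Immediate early genes as a list gave medians of 0.46 and 0.41. Whether handling of the tissue contributed to these differences was not tested. Summed endothelial and fibroblast markers were also higher in Il6-type than in Cox4i2-type cells. Endothelial markers summed to 327 against 126 CPM in control and 220 against 84.8 in SM22-SmoM2, with Flt1 most abundant. Fibroblast markers summed to 8705 against 6891 CPM and 8892 against 5634, with Col3a1 most abundant. Of 9 fibroblast markers compared in control, 3 had ratios below 0, namely Lum at -0.78 (-1.24 to -0.34), Dcn at -0.30 (-0.55 to -0.06) and Mfap5 at -0.23. Keratinocyte markers summed to 35.1 against 70.7 CPM in control and 32.4 against 21.2 in SM22-SmoM2. The part of other cell types in the chemokine and NF-κB values was not tested.

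Several mural genes were lower in Il6-type cells, with 4 of the 13 other mural genes at least 2-fold lower in control and 3 of 11 in SM22-SmoM2. Gja4, a gap junction connexin of vessel walls, was at 114 against 344 CPM in control with -1.60 (-2 to -1.22), and at 130 against 382 in SM22-SmoM2 with -1.56 (-2.18 to -0.96). Mef2c, a muscle transcription factor, gave -1.14 and -0.96. Tbx2, another transcription factor, had 8 and 3 UMIs in Il6-type against 106 and 19 in Cox4i2-type cells. Rgs5 was at 5713 against 8902 CPM with -0.64, and at 5213 against 9248 with -0.83, and it is a gene of the mural rule. Ednrb, an endothelin receptor, went the other way with 1.80 (0.83 to 2.83) and 1.90 (0.34 to 3.9), on 29 and 22 UMIs. Pdgfrb gave 0.06 and 0.04 and Vtn 0.01 and -0.14, with intervals that held 0.

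Contractile genes gave a median of -0.20 over 19 compared in control and of -0.45 over 13 in SM22-SmoM2. Acta2 was at 2482 against 2777 CPM in control with -0.16 (-0.25 to -0.07), and at 656 against 1622 in SM22-SmoM2 with -1.31 (-1.58 to -1.04). Myl9 gave -0.40 and -1.40 and Tagln -0.07 and -0.15. In SM22-SmoM2, 3 of the 13 were at least 2-fold lower (Acta2, Myl9 and Ppp1r14a), and in control 1 of 19 was.

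**Figure D4:**
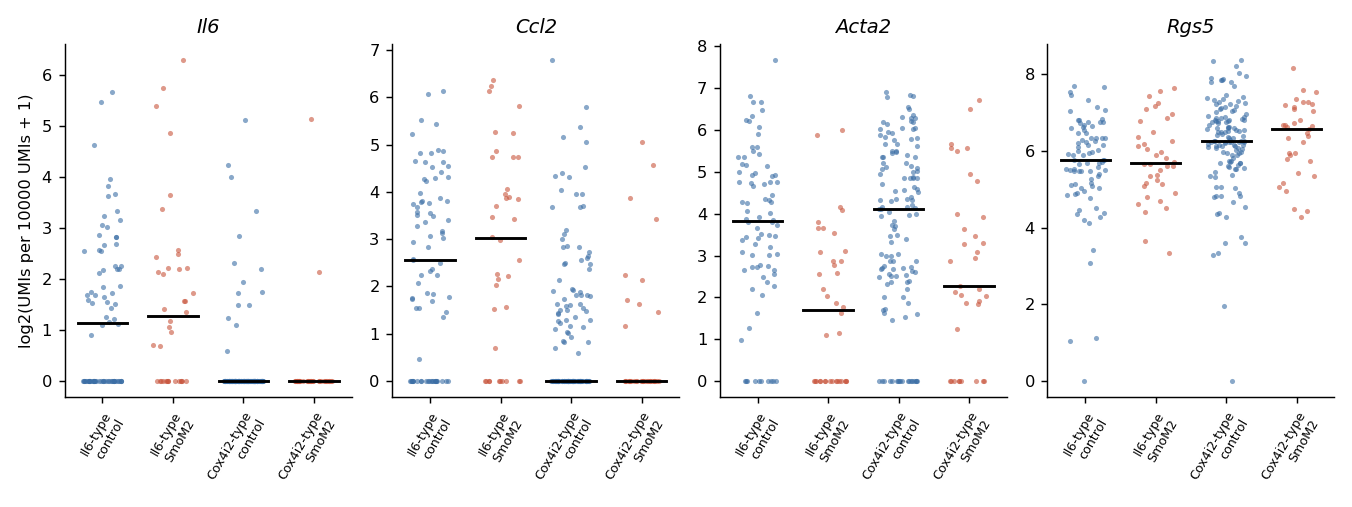
Each point is 1 cell with at least 10 mural-marker UMIs per 10000, and bars are medians. The vertical axis gives log2(UMIs per 10000 UMIs + 1) of Il6, Ccl2, Acta2 and Rgs5 in control (blue) and SM22-SmoM2 (red) cells of each type. The Acta2 median is lowest in SM22-SmoM2 Il6-type cells, and the Il6 and Ccl2 medians of Cox4i2-type cells are 0.

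**Figure D5:**
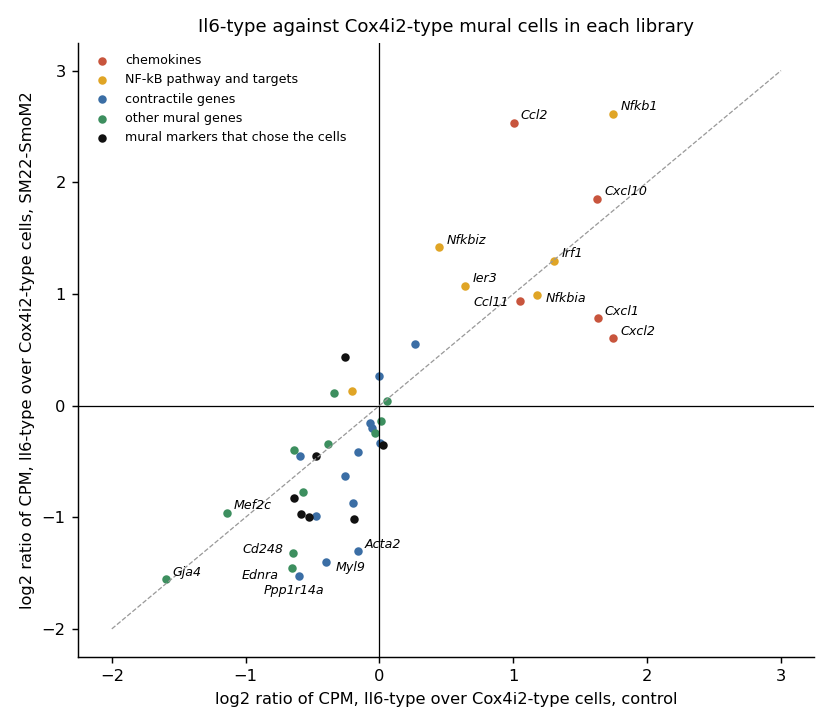
Each point is 1 gene with at least 50 UMIs in both libraries, in cells with at least 10 mural-marker UMIs per 10000. Axes give the log2 ratio of CPM of Il6-type over Cox4i2-type cells in control (horizontal) and SM22-SmoM2 (vertical), colours give the gene list, and the dashed line marks equal ratios. Chemokines and most NF-κB genes lie at the upper right and Gja4 and Mef2c at the lower left, while Acta2 and Myl9 lie well below the line.

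The plot of single-cell levels shows that all these comparisons rest on wide and overlapping distributions, with many cells at 0 for Il6 and Ccl2. In the plot of type ratios by library, the chemokines Ccl2 and Cxcl10 lie above 0 on both axes and the contractile genes spread along the SM22-SmoM2 axis. The libraries give 1 ratio each, and the agreement of their signs was not tested.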

How the data were processed

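Tomato-sorted dermal cells of 1 control and 1 SM22-SmoM2 library were used. The authors made the deposited UMI counts with bcl2fastq and Cell Ranger against mm10, keeping confidently mapped reads without PCR duplicates. Versions and cell calling are not given in the sources used here. The values are whole numbers per gene and cell, without normalization. Of 4680 barcodes, 4648 passed the mitochondrial filter. The members, gene lists and comparisons were chosen with earlier results of these data known. The named genes were the rule genes, the listed genes and the 12 genes highest and lowest in each comparison, leaving out mitochondrial, ribosomal, Xist and Y-linked genes.

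UMIs were summed over cells of a type and scaled to CPM. Genes with at least 50 UMIs over the groups compared entered a comparison, 3 UMIs stood in for a smaller count, and called means at least 2-fold. Levels have exact Poisson, ratios exact conditional and shares exact Clopper-Pearson intervals, at 95%, for counting error only. Cells were thinned to 2500 UMIs for detection shares. Fibroblasts, endothelial, Schwann and immune cells were those passing at least 3 of 7 markers of 1 lineage alone. The 56 symbols listed on several rows were taken by their first row. Depth in the kept cells and in the members is given with the results, and 3 UMIs were taken as the floor. Alternatives changed the mitochondrial limit, mural marker minimum, other-lineage limit, lead, depth, doublet filters, sex, scaling and low-count filter. The summed Schwann cell markers are not reported here. No test was run, since each group is 1 sample. The interval code was tested on simulated data. Python 3.11.15, numpy 2.4.6, scipy 1.17.1, pandas 2.3.3 and matplotlib 3.10.9 were used.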

Additional observations from a re-analysis of the deposited data

How the results depend on the processing

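The summed contractile genes and Acta2 were lower in SM22-SmoM2 under every alternative run, and the size varied. Il6 chose members, so its values describe that choice under each setting. Il6 in SM22-SmoM2 over control stood at a log2 ratio of 1.21 with mitochondrial UMIs up to 5% and 1.03 as the mean of per-cell CPM. It stood at 0.11 (-0.38 to 0.58) with a lead of at least 2 genes and 0.34 (-0.01 to 0.69) with at least 4 mural markers. The summed contractile genes stood at -0.97 with at least 4 mural markers, -1.01 with 0 UMIs of Pdgfra, Pecam1 and Sox10, -0.65 with a lead of at least 2 genes, -0.81 after thinning to 2500 UMIs, -0.75 without the deepest 5% of barcodes, -0.26 in male cells alone (Y-linked and no Xist UMIs), -0.69 as the mean of per-cell CPM, -0.45 when centred on the median of genes and -0.91 in the 120 cells. Acta2 ranged from -2.16 to -0.85 over the alternatives. The share of mural cells became 7.69% in control and 11% in SM22-SmoM2 with a lead of at least 2 genes, and 33.8% in control and 26.4% in SM22-SmoM2 in male cells alone, the opposite order. The cause was not tested.

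Counts of genes depended on the filter and on who was counted. Genes at least 2-fold higher in SM22-SmoM2 Il6-type cells numbered 25 with a lead of at least 2 genes, 10 after thinning, 227 with at least 20 UMIs, 26 with at least 100 and 748 with no filter on low counts, against 64. Genes at least 2-fold lower numbered 141 with at least 4 mural markers, 134 with 0 UMIs of the other lineages, 79 with a lead of at least 2 genes, 30 after thinning, 620 with at least 20 UMIs, 111 with at least 100, 1196 with no filter and 141 in the 120 cells, against 261. Genes at least 2-fold higher than in Cox4i2-type cells in both libraries numbered 10 with a lead of at least 2 genes, 3 after thinning, 5 in male cells alone, 44 with at least 20 UMIs, 7 with at least 100 and 138 with no filter, against 19. Genes lower in both numbered 4 with at least 4 mural markers, 5 with 0 UMIs of the other lineages, 2 after thinning, 3 without the deepest 5% of barcodes, 5 as the mean of per-cell CPM, 32 with at least 20 UMIs, 4 with at least 100, 156 with no filter and 4 in cells with at least 10 mural-marker UMIs per 10000, against 8. Fewer genes or cells entered under several of these by construction. Genes that chose the types were not left out of the counts against Cox4i2-type cells.

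Of single genes at least 2-fold apart in all cells, these changed sign, and genes closer to no difference are not listed. With at least 4 mural markers these were, for SM22-SmoM2 over control Fn1 at 0.053, Lum at 0.72, Dcn at 0.41, Mfap5 at 1.84, Col1a1 at 0.19, Mfap4 at 2.48 and Ly6a at 0.73, and for Il6-type over Cox4i2-type cells in control Lum at -0.64, Dcn at -0.013, Mfap4 at -1.77 and Col8a1 at -0.22. With 0 UMIs of Pdgfra, Pecam1 and Sox10 these were, for SM22-SmoM2 over control Klf2 at 0.16. With a lead of at least 2 genes these were, for SM22-SmoM2 over control Klf2 at 0.32, Cenpf at 1.95, Penk at -1.63, Fbn2 at -0.047, Igfbp4 at -0.78 and Pim1 at -0.78, and for Il6-type over Cox4i2-type cells in SM22-SmoM2 Lum at -2.99, Id1 at -0.23, Ly6a at -1.08 and Fabp4 at 0.39. After thinning to 2500 UMIs these were, for SM22-SmoM2 over control Fn1 at 0.30, Tnc at 0.60, Heyl at -0.22, Ccnb1 at 2.08, Ube2c at 2.30, Dpt at 0.91, Mfap5 at 1.46, Col1a1 at 0.093, Noct at -1.03, C1qtnf3 at 0.34, Mfap4 at 0.89 and Pim1 at -0.20, and for Il6-type over Cox4i2-type cells in control Fn1 at -0.71, Mfap5 at -1.28, Tnfrsf12a at -0.29, Fabp4 at 0.23 and Col8a1 at -0.39, and for Il6-type over Cox4i2-type cells in SM22-SmoM2 Lum at -0.83, Ctgf at -0.64 and Ly6a at -1.42. Without the deepest 5% of barcodes these were, for SM22-SmoM2 over control Ccnb1 at 0.11, and for Il6-type over Cox4i2-type cells in SM22-SmoM2 Lum at -0.20 and Col8a1 at -0.88. Without barcodes holding both Xist and Y-linked UMIs these were, for Il6-type over Cox4i2-type cells in SM22-SmoM2 Col8a1 at -0.88. In male cells alone these were, for Il6-type over Cox4i2-type cells in SM22-SmoM2 Lum at -0.11, Mfap4 at -0.11 and Col8a1 at -0.28. In cells with at least 10 mural-marker UMIs per 10000 these were, for SM22-SmoM2 over control Fn1 at 0.084, Lum at 0.71, Dcn at 0.40, Mfap5 at 1.86, Col1a1 at 0.20, Mfap4 at 2.49 and Ly6a at 0.70, and for Il6-type over Cox4i2-type cells in control Lum at -0.78, Dcn at -0.30, Mfap5 at -0.23, Mfap4 at -2.42 and Col8a1 at -0.32. The setting of 10 mural-marker UMIs per 10000 and that without the Lyz2-rich and Il1b-rich cells were chosen after seeing the data. No paired analysis was possible because each group is 1 library. With 38 SM22-SmoM2 members, a gene under 3 UMIs there could not be told from 0.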

Other observations

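Of 12 genes for nitric oxide and cyclic GMP signalling, 6 reached 50 UMIs over both libraries, and Gucy1a3 among them chose members. The summed list gave a log2 ratio of SM22-SmoM2 over control of 0.03 (-0.17 to 0.23) in all members and of -0.40 (-0.60 to -0.20) in the 120 cells with at least 10 mural-marker UMIs per 10000. Gucy1b3, the β subunit that joins Gucy1a3 in soluble guanylate cyclase, was at 136 CPM in control and 205 in SM22-SmoM2, with a log2 ratio of 0.12 (-0.36 to 0.59) in the 120 cells. Pde5a, the phosphodiesterase that breaks down cyclic GMP, was at 63.7 and 93.7 CPM, and Pde3a at 76.6 and 50.4, with ratios of 0.05 and -1.06 in the 120. Prkg1, the cyclic GMP-dependent kinase, had 11 and 7 UMIs. The natriuretic peptide receptors Npr1, Npr2 and Npr3 had 4 or fewer UMIs in either library.

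Of 19 receptors and channels for vasoactive signals, 5 reached 50 UMIs over both libraries, and none of these was at least 2-fold higher or lower. S1pr3, a sphingosine 1-phosphate receptor, was the most abundant at 101 and 191 CPM, with 0.53 (0.00 to 1.05) in the 120 cells. Agtr1a, the angiotensin receptor, was at 67.2 and 72.1 CPM, with -0.18 (-1.01 to 0.59) in the 120. The adrenergic receptors Adra1a and Adra1d and the potassium channel Kcna5 had 0 UMIs in both libraries, where 3 UMIs would be 3.54 CPM in control and 10.8 in SM22-SmoM2. Skeletal muscle markers summed to 5 and 3 UMIs in all members.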
